A study of Rattus with 18 samples.

Results

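Infarcted hearts treated with an infusible extracellular matrix (iECM) were set against control infarcts 1 day later. The comparison used 9 of the 18 samples of the series, chosen by their agent and time labels: 5 iECM hearts and 4 control hearts, all at day 1. Each sample was total RNA of the left ventricular free wall of a Sprague-Dawley rat after a 35 min infarction, counted by NanoString hybridization, in which barcoded probes are counted directly without amplification. All 18 samples share a treatment text that names iECM, although 8 carry the agent label control. The groups here follow the agent label, and the labels do not state what control hearts received. Replicate numbers used below are not from the labels and follow the order of the samples within each group. The labels do not say that each sample was a separate animal, so p-values cover the spread between these samples, called hearts here, which may be technical.

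The design text names metabolic, fibrotic and inflammatory pathways as the subject. As background, an infarct at this stage is still filling with neutrophils and monocytes that clear dead muscle, while fibroblasts begin to turn into myofibroblasts and vessels at the border begin to sprout. Myofibroblasts are recognised by smooth muscle actin, vessel growth is driven by vascular endothelial and fibroblast growth factors, and ligands of the TGF-beta family steer both processes. In whole tissue, fewer cells of a type and less RNA per cell cannot be told apart.

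2 kinds of data describe the comparison. The authors deposited a table of 11 named genes for day 1, giving for each a fold change with its likelihood ratio score, p-value and q-value. These fold changes are printed as log2 of iECM over control, a base and direction inferred from the counts as described after the genes. They also deposited counts for numbered rows without gene names, so no row could be named, no marker list could be counted and the tissue could not be checked against its markers. The 380 rows taken as gene probes summed to 1396710, 1068375, 985208, 817309 and 1116460 counts in the iECM hearts, against 816397, 905210, 854984 and 1236864 counts in the control hearts. The ranges overlap, and the mean difference of 123449 counts had an exact two-sided permutation p of 0.381 (adjusted p = 0.460 over 5 quantities per heart, smallest possible p 0.0159).

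Acta2, the smooth muscle actin of vessel walls and myofibroblasts, was 1.52-fold lower in iECM hearts by the authors' deposited table (log2 fold change -0.61). Its likelihood ratio score of 15.5 was the highest of the table, and its q of 0.0314 was the only one under 0.05. By that rule 0.267% of the tested genes, whose number follows from the authors' deposited q-values, were called lower. The other 10 genes of the authors' deposited table all had a q of 0.99, so their values are given as values and not as changes. The authors' deposited table lists 2.94% of the genes tested, each with an unadjusted p under 0.05, and does not name the others. If no gene differed, 18.7 of the 374 genes tested would have such a p on average, against the 11 listed. For the counts of rows at that threshold given below, the average share would likewise be 0.05.

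**Figure D1:**
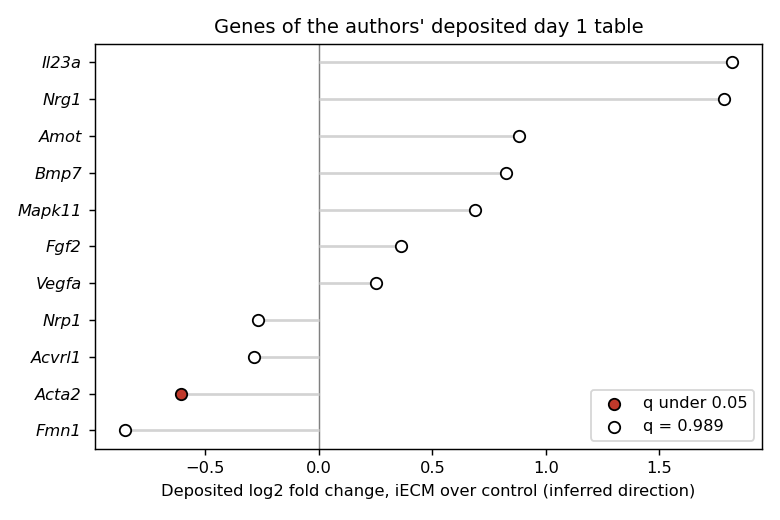
Log2 fold changes of the 11 genes in the authors' deposited day 1 table, as iECM over control, with points filled where q was under 0.05. Acta2 at -0.61 is the single filled point, and the open points run from -0.85 for Fmn1 to 1.82 for Il23a.

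The lists below only order the named genes. They were drawn up with earlier results of these data known and together hold all 11 genes of the authors' deposited table. That table lists 2.94% of all genes tested. The number named from each list was therefore fixed in advance and is no result about the list. The contractile and actin list had 8 genes. Of these the authors' deposited table named 3, and 1 of them, Acta2, passed the test, as lower. Fmn1, a formin that assembles actin filaments, stood at -0.85 in the authors' deposited table with p = 0.0278. Amot, angiomotin, a scaffold protein that binds actin and takes part in endothelial cell migration, stood at 0.88 with p = 0.0342 in the authors' deposited table. These 3 values lay on both sides of 0. All 3 genes had an unadjusted p under 0.05, so they do not describe the list as a whole.

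The vascular growth list had 13 genes, of which the authors' deposited table named 4, and 0 passed the test in either direction. Both ligands had positive values. Vegfa, the main growth factor of endothelial cells, was listed at 0.25 by the authors' deposited table, and Fgf2, a fibroblast growth factor that also acts on endothelium, at 0.36. Nrp1, which binds Vegfa beside its main receptors, had a negative value of -0.27 in the authors' deposited table. Amot belongs to this list too. Vegfa had the smallest p of the 10 genes with high q, at 0.0110 in the authors' deposited table, on a difference of 1.19-fold.

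The TGF-beta and BMP list had 14 genes, of which the authors' deposited table named 2, and 0 passed the test. Bmp7, a ligand that opposes TGF-beta signalling in several tissues, was listed at 0.83 by the authors' deposited table, and Acvrl1, an endothelial type I receptor of the family, at -0.29. The cytokine list of 10 genes was represented by Il23a alone, which encodes the subunit particular to interleukin-23, at 1.82 in the authors' deposited table. Nrg1, neuregulin, a growth factor that signals to cardiomyocytes, was the 1 member named of a list of 4 such factors, at 1.79 in the authors' deposited table. Mapk11, a kinase of the p38 family, was the 1 member named of 4 stress kinases, at 0.69 in the authors' deposited table. None of these 3 genes passed the test. All 6 lists were drawn up with earlier results of these data known. The members that the table leaves out have no value here, and whether they were tested is not known.

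Neither the base nor the direction is named in the headers of the authors' deposited table, so both were read from the counts, and the direction can be called likely. A negative binomial model with a background term was fitted to the day 1 counts of the rows before the control rows. It was not among the planned comparisons and was chosen after seeing the data. Its fold changes were paired with the 11 deposited ones at the smallest total gap. Read as log2 of iECM over control, the mean gap was 0.0148, against 0.0981 with the opposite direction. Read as natural logs, it was 0.133 with iECM on top and 0.194 with control on top. The median log2 gaps were 0.00315 with iECM on top and 0.0145 with control on top. The largest single log2 gaps were 0.0784 with iECM on top and 0.519 with control on top, so the mean with control on top leans heavily on 1 pair. Plain group means after background subtraction, with the same background and scaling as the model, also lay nearer with iECM on top. Their mean log2 gaps were 0.0184 with iECM on top and 0.110 with control on top. The edgeR fold changes, the main planned comparison, keep the background in the counts and lay slightly nearer to the opposite direction. Their mean log2 gaps were 0.360 with iECM on top and 0.336 with control on top. In the model with a background term, the highest score of all rows belonged to row 29, with a log2 fold change of -0.61 for iECM over control and a score of 12.7. Acta2 has the same size and sign and the highest score in the authors' deposited table. The files do not pair row 29 with a gene, and a like value does not name it.

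In the counts, the row with the smallest p was also row 29. It had 1830, 1645, 1396, 1211 and 1263 CPM (counts scaled to the library size, with TMM factors) in the iECM hearts, against 1957, 1814, 2481 and 2513 CPM in the control hearts. The groups overlapped by a single heart, as the highest iECM heart lay just above the lowest control heart. The means were 1469 ± 263 CPM (SD, n = 5) in iECM hearts and 2191 ± 358 CPM (SD, n = 4) in control hearts, a log2 fold change of -0.58 (SE 0.21, 95% interval -1.02 to -0.13). It did not pass edgeR's quasi-likelihood test after Benjamini-Hochberg adjustment over all rows tested (adjusted p = 0.998). With each heart left out in turn the row stayed negative, at -0.67 to -0.50.

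Row 124, the next lower one by p, had 1576, 1844, 1703, 1291 and 1593 CPM in iECM hearts, against 1938, 1571, 2069 and 1977 CPM in control hearts. Control replicate 2 lay among the iECM hearts, and the other 3 control hearts lay above all of them. The means were 1601 ± 204 CPM (SD, n = 5) in iECM hearts and 1889 ± 219 CPM (SD, n = 4) in control hearts. The log2 fold change was -0.24 (SE 0.11, edgeR adjusted p = 0.998).

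The rows with the smallest p among those higher with iECM were rows 149 and 140. Row 149 had 95.2, 93.2, 104, 86.8 and 81.3 CPM in iECM hearts, against 76.9, 85.4, 77.0 and 67.1 CPM in control hearts. The groups overlapped through control replicate 2, which lay above the lowest iECM heart. The means were 92.0 ± 8.48 CPM (SD, n = 5) in iECM hearts and 76.6 ± 7.49 CPM (SD, n = 4) in control hearts. Its log2 fold change was 0.27 (SE 0.13, edgeR adjusted p = 0.998).

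Row 140 had 1260, 1133, 1253, 1148 and 1347 CPM in iECM hearts, against 989, 1159, 1032 and 1169 CPM in control hearts. Here 3 iECM hearts lay above all control hearts and the others lay among them. The means were 1228 ± 88.6 CPM (SD, n = 5) in iECM hearts and 1087 ± 90.6 CPM (SD, n = 4) in control hearts. Its log2 fold change was 0.18 (SE 0.09, edgeR adjusted p = 0.998).

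**Figure D2:**
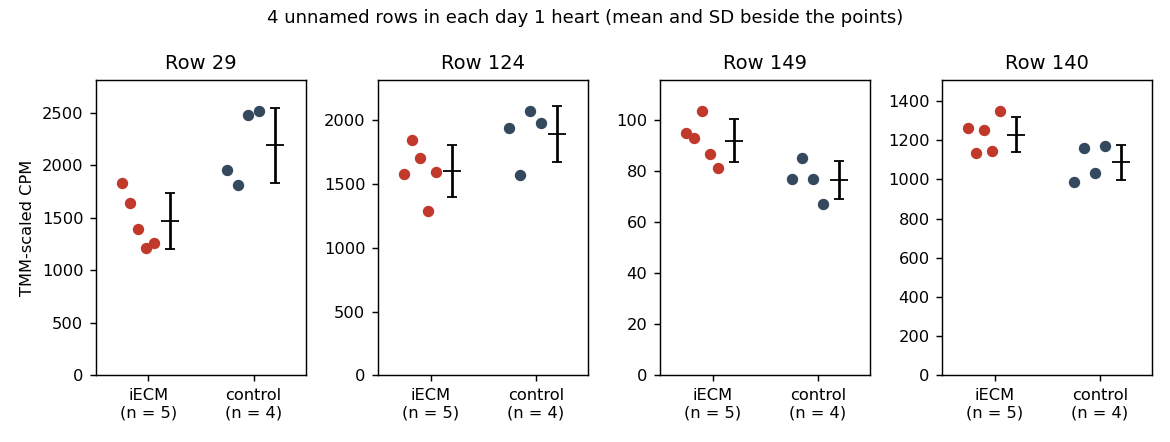
TMM-scaled CPM of rows 29, 124, 149 and 140 in each day 1 heart, from 0, with iECM hearts left of control hearts and the mean and SD beside the points. In every panel the points of the 2 groups overlap by at least 1 heart, and in row 29 the means stand at 1469 CPM for iECM and 2191 CPM for control.

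Over all rows, edgeR's quasi-likelihood test called 0 of 371 at an adjusted p under 0.05, which is 0% of those tested. DESeq2 and limma also called 0, and DESeq2 had 4 rows at an unadjusted p under 0.05. In edgeR, at an unadjusted p under 0.05 there were 3 rows, 0.809% of those tested, and all 3 were lower with iECM. The third, row 55, chosen here after its values were seen, averaged 26.8 ± 7.21 CPM (SD, n = 5) in iECM hearts and 35.8 ± 8.53 CPM (SD, n = 4) in control hearts (log2 fold change -0.45, edgeR adjusted p = 0.998), and it was above background in 6 of the 9 hearts. The number at an unadjusted p under 0.05 depended on single hearts: it was 19, of which 15 were higher with iECM, without control replicate 2, 9 without iECM replicate 2, 8 without iECM replicate 4, 6 without control replicate 3, and 5 without iECM replicate 3 or iECM replicate 5.

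In edgeR on the counts with background left in, the differences were small across the panel. Of the rows tested 179 had a positive and 192 a negative log2 fold change, with a median of -0.01 and quartiles of -0.10 and 0.09. The extremes of these edgeR fold changes were -0.64 and 0.52. Their 95% interval lay inside a 2-fold difference for 341 rows, 269 of them above background in all 9 hearts, and inside a 1.5-fold difference for 224 rows. These intervals are for the counts with background in them. In the rows that were not above background in all 9 hearts, they do not bound the fold change over background. Some intervals at low counts were also narrower than edgeR's p allows, so the 341 and the 224 may be too high.

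In CPM, only 1 row had all 5 iECM hearts above all 4 control hearts, and 1 row had them all below, each 0.27% of those tested. With no difference between the groups, a row would be apart in either direction with a probability of 0.0159. Both rows were chosen here after their values were seen. Row 371 had 17.9, 17.6, 16.3, 17.4 and 15.2 CPM in iECM hearts, against 11.9, 9.49, 13.5 and 14.1 CPM in control hearts. Row 248 had 16.4, 21.8, 22.9, 20.8 and 20.3 CPM in iECM hearts, against 31.8, 26.4, 29.7 and 24.0 CPM in control hearts. Before scaling, the counts overlapped in both rows. In row 248 iECM replicate 5 had 24 counts, against 22 in control replicate 3. In row 371 iECM replicate 3 had 15 counts, against 17 in control replicate 4. Neither row was above background in any of the 9 hearts.

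Background was taken in each heart as the mean plus 2 SD of the 8 rows read as negative controls, which came to 25.8 to 32.3 counts. Of the rows tested 278 were above it in all 9 hearts, 48 in some and 45 in none. Per heart, 304 ± 7.43 probes (SD, n = 5) were above background with iECM and 298 ± 10.6 (SD, n = 4) in controls, a difference of 5.95 probes with an exact two-sided permutation p of 0.349 (adjusted p = 0.460). The median SE of the log2 fold change was 0.15 in rows above background in all 9 hearts and 0.28 in the rest. The spread between hearts was widest in the faintest rows in both groups. Among 73 rows with a mean count under 30, the median coefficient of variation was 26.9% over iECM hearts and 29.4% over control hearts. Among 50 rows between 30 and 100 it was 18.3% over iECM hearts and 16.9% over control hearts, and among 154 rows between 100 and 1000 it was 15.4% over iECM hearts and 18.2% over control hearts. Among 94 rows over 1000 it was 12.5% over iECM hearts and 14.5% over control hearts. In edgeR, with background left in the counts, 26 faint rows had a positive and 47 a negative log2 fold change (median -0.09). Of the abundant rows 50 had a positive and 44 a negative one, with a median of 0.01. In the faint rows these values do not give a direction over background. Gene rows, which set the scaling, averaged 1076812 summed counts in iECM hearts and 953364 in control hearts. The negative-control rows averaged 114 summed counts in iECM hearts and 117 in control hearts. Whether the scaling bears on the lean of the faint rows was not tested.

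Fold changes differed in size between the models. In edgeR on the counts as deposited the largest size was 0.64, and 2 of the 5 rows with a size over 0.5 were above background in all 9 hearts, whereas the authors' deposited table holds Il23a at 1.82 and Nrg1 at 1.79, or 3.53-fold and 3.45-fold. In the model with a background term, 16 rows exceeded a size of 1, their mean counts were 12.3 to 21.7, none was above background in all 9 hearts and 10 were above it in none. In 7 of these rows the fold change ran past 3 and has no meaning as a size. All 7 had mean counts at or below the level of the background in 1 or both groups. The 3 rows with values between 1.5 and 2.2 averaged 23.2 to 25.6 counts in iECM hearts, against 16.5 to 17.0 counts in control hearts, where the negative-control rows averaged 13.3 to 15.8 counts per heart. The same 3 rows had edgeR log2 fold changes of 0.25 to 0.43.

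Among the 272 rows above background in all 9 hearts, the largest size in that model was the 0.61 of row 29, followed by 0.48. Of the 11 genes, Il23a, Nrg1, Amot, Fmn1, Bmp7 and Mapk11 have a size above 0.61 in the authors' deposited table. Acta2, Fgf2, Acvrl1, Nrp1 and Vegfa lie at or under it. Between 0.61 and 1 the model held 12 rows, with mean counts of 14.7 to 38.7, and the best detected of them were above background in 6 of 9 hearts. The model called 0 of 374 rows, 0% of those tested, at an adjusted p under 0.05. Row 29 had the smallest adjusted p there, at 0.139. At an unadjusted p under 0.05 it had 7 rows, 1.87% of those tested, 6 higher and 1 lower with iECM.

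**Figure D3:**
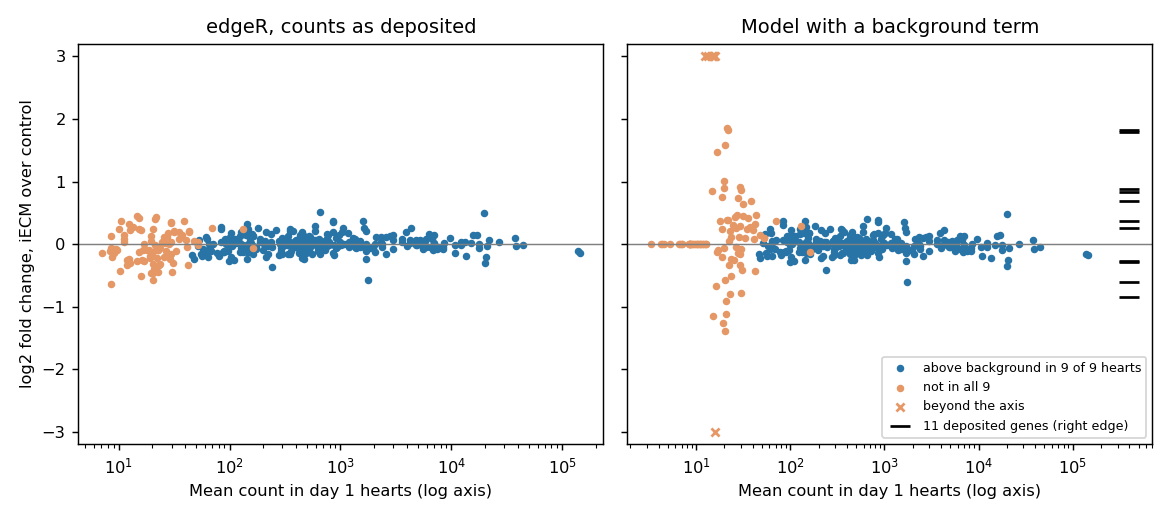
Log2 fold change of iECM over control against the mean count of each row in day 1 hearts (log axis), from edgeR on the deposited counts on the left and from the model with a background term on the right. Blue rows were above background in all 9 hearts, crosses mark 7 rows beyond an axis limit of 3, and black bars at the right edge are the 11 deposited genes, 6 of which lie farther from 0 than any blue row of that panel.

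The most abundant rows differed little. In each day 1 heart, its own 10 highest rows took 48.7% to 53.9% of the gene counts. The 10 rows with the highest mean counts had log2 fold changes from -0.31 to 0.09, with 3 of 10 positive and the smallest edgeR p at 0.113. The last 6 rows of the table, which follow the control rows and whose kind the files do not state, ran from -0.06 to 0.13, with 4 of 6 positive and the smallest edgeR p at 0.367.

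The 2 groups did not separate as a whole. On the first principal component of the 9 hearts, with 44.1% of the variance, iECM hearts lay between -3.02 and 6.14 and control hearts between -8.76 and 6.20. On the second, with 20.1%, iECM hearts lay between -3.97 and 5.17 and control hearts between -2.41 and 3.72. Control replicates 1 and 2 stood at opposite ends of the first component, at -8.76 and 6.20. As a distance over all rows, 2 of 5 iECM hearts and 1 of 4 control hearts lay nearer to the mean of the other hearts of their own group than to the mean of the other group. For control hearts the mean of their own group held fewer hearts than that of the other group, which lengthens the first distance. The 1 of 4 is therefore not an even comparison.

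**Figure D4:**
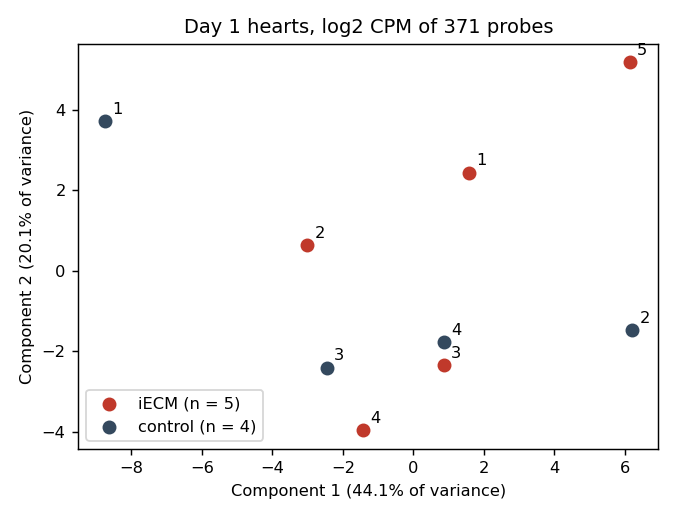
The 9 day 1 hearts on the first 2 principal components of log2 CPM over all probes tested, numbered by replicate. iECM and control hearts are mixed on both axes, and control replicates 1 and 2 lie at -8.76 and 6.20 on the first.

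Whether the iECM difference at day 1 was other than that at day 3 was tested in the same model, as the day 1 difference minus the day 3 difference, with 5 iECM and 4 control hearts on each day. edgeR called 0 rows, 0% of those tested, and DESeq2 and limma also called 0. At an unadjusted p under 0.05 there were 10 rows, 2.7% of those tested, 8 with the higher value at day 1 and 2 with the lower. None of these 10 was among the 3 rows with an unadjusted p under 0.05 at day 1, where their own smallest p was 0.0540. Row 29 had a log2 fold change of -0.58 (SE 0.21) at day 1 and -0.22 (SE 0.21) at day 3, and the difference of -0.36 (SE 0.30) did not pass (edgeR adjusted p = 0.928). Its level at day 3 was 4397 ± 1526 CPM (SD, n = 5) in iECM hearts and 5125 ± 282 CPM (SD, n = 4) in control hearts, above the day 1 levels in both. Row 149 stood at 0.27 at day 1 and -0.11 at day 3, a difference of 0.37 (SE 0.18, edgeR adjusted p = 0.928). At day 3 alone, 11 rows, 2.96% of those tested, had an unadjusted p under 0.05, and 0 rows did so on both days.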

How the data were processed

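NanoString counts of 18 heart samples were used, with groups from the agent and time labels and 9 samples at day 1. The deposited table holds whole-number counts per row, taken as not normalized because totals differ between samples. Counting software was not given in the sources used here. Per the file headers, the authors' deposited tables hold per gene a log fold change (base inferred as log2), a p-value, a q-value and a likelihood ratio score, and the day 1 p-values equal chi-square tails of the scores. All 11 symbols matched NCBI RefSeq's gene table (GRCr8).

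Rows 375 to 380 were read as positive and rows 381 to 388 as negative controls from their values. In edgeR 4.0.16, filterByExpr with a minimum count of 10 kept 371 of 380 rows, counts were TMM-scaled, and a quasi-likelihood test was fitted to 4 group means over all 18 samples (14 residual degrees of freedom), with Benjamini-Hochberg adjustment at 0.05. The background model used day 1 counts alone, the mean negative-control count as background, and scaling on the positive-control rows and rows 389 to 394. Its p-values are chi-square tails of the likelihood ratio, an approximation with 9 samples. Alternatives were DESeq2 1.42.0, limma 3.58.1, other scalings, filters and left-out hearts. Both models were tested on simulated data, with outcomes that are not reported here. For the background model, fold changes were scored there only in rows well above background, so their accuracy in faint rows was not tested. No day 1 hearts were identical (chi-square per degree of freedom at least 14.8 for each pair). Every gene of the day 1 table is named, and of the unnamed rows the 2 with the smallest p in each direction. Members and lists were chosen with earlier results of these data known.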

Additional observations from a re-analysis of the deposited data

Results flagged for a closer look

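Control replicate 1 stood apart from the other control hearts on the second principal component of the day 1 hearts, at 3.72, with a gap of 0.847 of the range of that group. It was the 1 value so far from its group in 26 tests, where chance gives about 1 in 20.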

How the results depend on the processing

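The count of 0 called rows at day 1 was 0 in all 20 alternatives, with smallest adjusted p-values from 0.139 to 1.00, and the count of 0 for the difference between the days was 0 in all 18. The 3 rows at an unadjusted p under 0.05 became 0 with positive-control scaling, 5 with scaling on the last 6 rows, 12 with background subtraction and limma, 12 with quantile normalization and limma, and 7 in the model with a background term, a likelihood ratio test chosen after seeing the data. With 1 heart left out they ranged from 2 to 19. The cause was not tested. The 4 rows given heart by heart kept their direction in all 20 alternatives, from -0.67 to -0.50 for row 29. Positive-control scaling moved the median of all probes to 0.07. The mean gap of the opposite direction minus that of iECM over control was -0.02 with edgeR fold changes, 0.0920 with background-subtracted means and 0.0832 in the model with a background term, so edgeR fold changes alone pointed the other way. The differences in summed counts and in detected probes kept their sign with each heart left out, and the summed counts on the log2 scale too, with no exact permutation p under 0.107. No paired analysis was possible because replicate numbers are missing from the labels. Intervals were wider at low counts: 56 of 73 rows with a mean count under 30 had a 95% interval inside a 2-fold difference, against 91 of 94 rows over 1000, and the cause was not tested. Some intervals at low counts were narrower than edgeR's p allows, so the 56 may be too high.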
